A study of Mus musculus with 20 samples.

Results

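The genes of the NMDA receptor subunits Grin1, Grin2a, Grin2b, Grin2c, Grin2d and Grin3a were followed across 20 RNA-seq libraries of mouse hippocampus and amygdala, collected at postnatal day 21. The 6 genes were found by symbol among the 23412 genes that the tables of both tissues list. Their unit is TPM, a relative transcript abundance scaled for transcript length, by which levels of different genes are set side by side. The annotation behind this scaling is not named. Grin2a and Grin2b moved with other genes of long transcripts between libraries, as described below, which limits comparison of their levels with other members. All 6 genes passed the filter for testing, which asked for at least 1 TPM in at least 3 of the 10 libraries of a tissue, and none was below 5.09 TPM in any library. Grin3b, the remaining gene of the family, was listed at 0.0 to 0.2 TPM and was not examined further.

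NMDA receptors are glutamate-gated channels that open only when an agonist is bound and the membrane is depolarised, and the calcium they admit drives synaptic plasticity. Every channel holds the GluN1 subunit, encoded by Grin1, which binds glycine or D-serine. GluN1 assembles with glutamate-binding GluN2 subunits, encoded by Grin2a to Grin2d, and in some channels with the glycine-binding GluN3 subunits, encoded by Grin3a and Grin3b. In the rodent forebrain, GluN2B dominates in early life and GluN2A rises over the first weeks after birth, a switch that shortens synaptic currents. GluN2D is abundant in interneurons and in diencephalon, GluN2C in glia and cerebellum, and GluN3A is a juvenile subunit that lowers calcium entry.

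The study asked what the corepressors NCoR1 and SMRT do in neurons of the developing brain. Mice with floxed alleles of either corepressor were crossed to Snap25-IRES2-cre, a Cre inserted at the Snap25 locus and active in neurons in general, so that glia and vessels keep the floxed gene. All groups were of the same age, with 4 libraries of controls and 3 of either knockout in each tissue. Strain, sex and the Cre and floxed alleles of the controls are not stated in the labels. Nor is it stated that every library is a separate animal, and p-values then cover only the spread from library to library, some of which may be technical. NCoR1-KO and SMRT-KO were compared with the same control libraries.

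The subunits are related proteins, and a short-read measurement has to tell their transcripts apart. The 10 codons of the coding sequence that are most alike across 5 of the genes are printed here, 5′ to 3′ on the coding strand from GENCODE M21 transcripts, with capitals at the 16 of 30 bases that are identical in these 5 genes. They encode part of the third transmembrane segment, the most conserved stretch of ionotropic glutamate receptors.
Grin1: gTggCttccTAcACtGCcAAccTGGCaGCc
Grin2a: cTtgCaagtTAcACaGCcAAccTGGCtGCc
Grin2c: cTcgCtagcTAcACgGCcAAtcTGGCaGCc
Grin2d: cTtgCcagcTAtACaGCcAAtcTGGCtGCc
Grin3a: cTttCtacaTAcACaGCgAActTGGCtGCt

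In this stretch Grin2a and Grin2d shared 26 of 30 bases. Over the whole protein, Grin2a and Grin2b were 56.1% identical and Grin2c and Grin2d 56%, whereas Grin1 was 25% to 27.1% identical to the other members. The longest exact run shared by any pair of transcripts was 34 bases, between Grin2b and Grin2c. Runs of 32 bases between Grin2c and Grin2d, 28 between Grin2a and Grin2d and 24 between Grin2a and Grin2b followed, and the other pairs shared at most 20.

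The members differ far more in transcript length than in coding length. On GRCm38, which mm10 names, all 6 genes lie on the minus strand. Grin1 lies at chr2:25291181-25319187 with a longest coding transcript of 4276 bases, and Grin2c at chr11:115249169-115267243 with 4895 bases. Grin2d lies at chr7:45831883-45878378 with 5431 bases, and Grin3a at chr4:49661611-49845744 with 7491 bases. Grin2a lies at chr16:9567898-9995560 with 14634 bases, of which 9932 are 3′ UTR. Grin2b lies at chr6:135713233-136173511 with 24060 bases, of which 18868 are 3′ UTR. Only 56 of 12923 measured genes with a coding transcript had a longer one than Grin2a, and only 5 a longer one than Grin2b. Grin1 overlaps the antisense gene Grin1os, Grin3a holds Ppp3r2 and Gm12459 on its own strand, and Grin2d holds Gm22098. On the other strand, Grin2d overlaps Kdelr1 and Gm45441, Grin2c overlaps Gm25837, and Grin2b overlaps Gm14329, Gm22892, Gm14330 and Gm26653. The library kit marks strand, but the labels do not state whether the counting used it, so reads in these overlaps are of uncertain origin.

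The targeted gene was checked first. Ncor1, which encodes NCoR1, was at 81.58, 118.56, 129.41 and 137.44 TPM in the hippocampal controls and at 41.91, 44.51 and 61.09 TPM in the hippocampal NCoR1-KO libraries. In the amygdala it was at 71.28, 117.39, 118.6 and 126.54 TPM in controls and at 32.06, 34.59 and 39.0 TPM in NCoR1-KO, so the NCoR1-KO libraries lay below all others of their tissue. Snap25, the locus that carries the Cre, was between 1053 and 1699 TPM in the 12 knockout libraries and between 1825 and 2329 TPM in the 8 controls. Against controls, loss of a corepressor therefore cannot be told apart from whatever goes with the Cre allele or lower Snap25. Between the 2 knockouts Snap25 overlapped in both tissues. Markers of the hippocampal CA fields summed to 388 to 582 TPM in hippocampus and 263 to 318 TPM in amygdala, and markers of amygdala nuclei to 96.1 to 210 TPM and 212 to 322 TPM. In hippocampus, markers of 3 neighbouring regions were each highest in a different library. Striatal markers summed to 488 TPM in control 2 against at most 174 TPM elsewhere in hippocampus. Choroid plexus markers ran from 34.2 to 11578 TPM, highest in NCoR1-KO 3, with SMRT-KO 2 at 5787 TPM. Controls 1 and 2 were at 3277 and 3331 TPM. Thalamic markers reached 653 TPM in SMRT-KO 2 against at most 191 TPM. In amygdala, choroid plexus markers summed to 1097 TPM in control 1, 792 TPM in SMRT-KO 1 and 618 TPM in SMRT-KO 3. The other amygdala libraries had at most 101 TPM. Striatal markers there ran from 426 to 1792 TPM, with 1298 TPM in control 3. The part of these amygdala markers in the subunit results was not tested. In this bulk tissue, fewer cells of a type and less RNA per cell cannot be told apart.

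Grin1 was by far the highest of the subunit genes in every library. In the controls its level was 433 ± 17.0 TPM (SD, n = 4) in hippocampus and 373 ± 16.9 TPM (SD, n = 4) in amygdala, and it made up 74.1% and 67.8% of the summed TPM of the 6 genes. In hippocampal controls Grin2b (56.6 ± 34.0 TPM), Grin2a (44.9 ± 38.8 TPM), Grin3a (25.6 ± 7.60 TPM) and Grin2c (24.1 ± 1.67 TPM) followed in the order of their means. The range of each of these neighbours overlapped the next, although Grin2b exceeded Grin2a within each of the 4 libraries, while Grin2d, at 6.88 ± 1.02 TPM, was lowest in all 4 libraries. In amygdala controls Grin2b (60 ± 14.6 TPM) and Grin3a (58.9 ± 6.36 TPM) overlapped and were followed by Grin2c (25.9 ± 3.24 TPM) and Grin2a (22.5 ± 8.58 TPM), which overlapped as well. Grin2d was again lowest, at 9.88 ± 1.13 TPM.

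**Figure D1:**
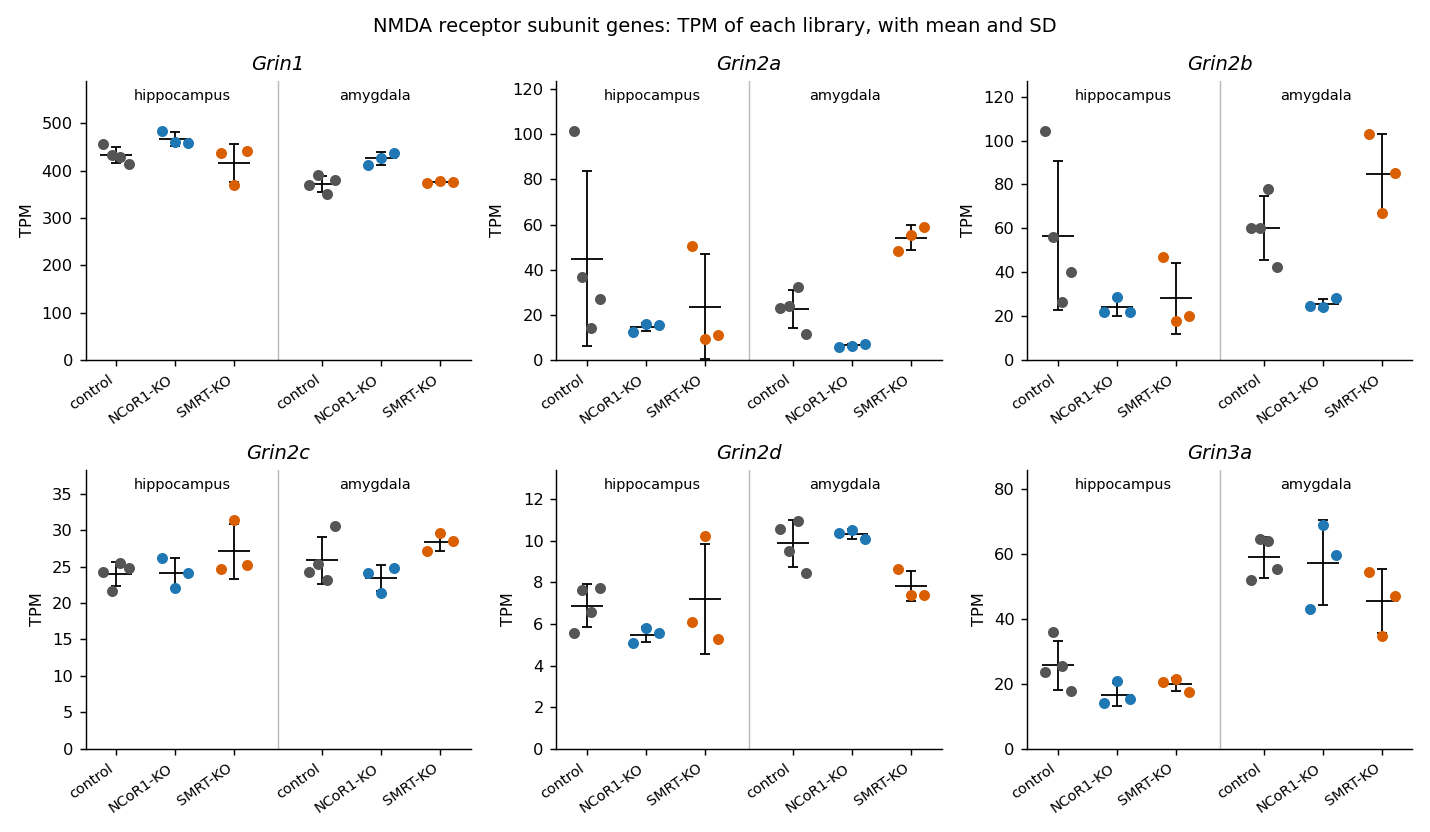
TPM of the 6 subunit genes in each library (points), by tissue and genotype, with the mean (long bar) and SD (whiskers) of the group, on linear axes that start at 0. Grin1 stays between 351 and 483 TPM, whereas Grin2a runs from 5.6 to 101.33 TPM and is lowest in the amygdala NCoR1-KO libraries.

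The members differed in their spread within groups. Within the groups of a tissue, the SD of the log2 level of Grin1 was 0.09 in hippocampus and 0.05 in amygdala, below the median gene with at least 5 TPM (0.12 and 0.10). For Grin2a it was 1.02 and 0.41, and for Grin2b 0.68 and 0.29. Only 0.535% of 11778 genes in hippocampus and 1.74% of 11861 in amygdala varied more than Grin2a, and 1.31% and 4.38% varied more than Grin2b. Grin3a followed, with an SD of 0.32 and 0.27, the latter close to that of Grin2b. Grin2d was at 0.27 and 0.12 and Grin2c at 0.13 in both tissues.

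In the amygdala, Grin2a and Grin2b fell in NCoR1-KO. Grin2a, the gene of the subunit that rises with maturation, was at 22.87, 23.7, 32.22 and 11.33 TPM in controls and at 5.6, 6.3 and 7.24 TPM in NCoR1-KO. Every knockout library lay below every control. On the log2(TPM + 1) scale, which is used for all differences and understates changes of low levels, Grin2a differed by -1.59 ± 0.26 (SE, adjusted p = 0.0341). Grin2b, the gene of the early subunit, was at 59.98, 59.89, 77.89 and 42.24 TPM in controls and at 24.41, 24.14 and 28.11 TPM in NCoR1-KO, again without overlap. Its difference was -1.17 ± 0.18 (SE, adjusted p = 0.0291). Adjusted p-values come from limma's moderated test with Benjamini-Hochberg adjustment over all genes of the tissue, and a gene passes below 0.05.

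The other 4 subunit genes did not pass in this comparison. Grin1, the obligatory subunit, was at 411.94, 426.92 and 438.16 TPM in NCoR1-KO and at 368.76, 390.27, 350.96 and 380.48 TPM in controls, with a difference of 0.19 ± 0.05 (adjusted p = 0.113), and the groups did not overlap. Grin2c (-0.13 ± 0.09), Grin2d (0.06 ± 0.10) and Grin3a (-0.06 ± 0.17) overlapped between the groups. Thus 2 of 6 members passed, where 0.411% of 14606 genes tested did, and 3 of 6 did not overlap, against 12.1% of genes. The direction of Grin2a and Grin2b held in every alternative, but the calls were close to the threshold. The adjusted p of Grin2a rose to 0.109 and 0.0618 without control 1 or 3, to 0.194, 0.115 and 0.0638 without NCoR1-KO 1, 2 or 3, and to 0.057, 0.061 and 0.067 without SMRT-KO 1, 2 or 3. That of Grin2b rose to 0.0994 and 0.059 without control 1 or 3, to 0.167, 0.115 and 0.0597 without NCoR1-KO 1, 2 or 3, and to 0.067 without SMRT-KO 3. Without a filter on low values the adjusted p-values were 0.0733 and 0.0684, and with only the 2 groups in the fit they were 0.115 and 0.081. Microglial markers summed to 206 to 215 TPM in NCoR1-KO, below the 225 to 291 TPM of controls, with 0 of 5 passing. Of 8 thalamic markers, Rora passed, at -0.87 (adjusted p = 0.0162), and their sum was 90.6 to 96.3 TPM against 91.3 to 117 TPM. The part of these markers in the result was not tested.

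In amygdala SMRT-KO, Grin2a lay on the other side of the controls. It was at 48.18, 55.23 and 58.97 TPM, above all 4 controls, with a difference of 1.31 ± 0.26 (SE) that missed the threshold (adjusted p = 0.0572). Grin2b was at 102.82, 66.97 and 85.04 TPM and overlapped the controls (0.51 ± 0.18, adjusted p = 0.15). Grin2d, a subunit gene of interneurons, was at 8.65, 7.39 and 7.42 TPM against 10.6, 9.52, 10.95 and 8.46 TPM (-0.30 ± 0.10, adjusted p = 0.113). Grin3a differed by -0.39 ± 0.17 (adjusted p = 0.221), Grin2c by 0.14 ± 0.09 (adjusted p = 0.409) and Grin1 by 0.01 ± 0.05 (adjusted p = 0.903). None of the 6 members passed in limma's test, where 0.11% of 14606 genes passed, and 4 members had an unadjusted p under 0.05, as did 3208 of the 14606 genes. Grin2a alone did not overlap, as 18% of genes did not. Grin2a passed without control 3 (adjusted p = 0.0339), without SMRT-KO 1 (0.0357), and with genes of a mean under 5 TPM left out (0.0489). In the other direction, the adjusted p of Grin2a rose to as much as 0.232 with another library left out and 0.113 under another setting. Striatal markers summed to 1122 to 1792 TPM in SMRT-KO and 426 to 1298 TPM in controls, with 0 of 9 passing, and oligodendrocyte markers to 7699 to 11588 TPM and 2574 to 9154 TPM, with 0 of 8 passing. Of 8 thalamic markers, Rora passed, at 0.74 (adjusted p = 0.0473), while the median difference of the list was 0.03. The thalamic markers summed to 113 to 122 TPM in SMRT-KO and 91.3 to 117 TPM in controls. The part of all these markers in the result was not tested.

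Set directly against each other, the amygdala knockouts differed in 4 of the 6 subunit genes. Grin2a was lower in NCoR1-KO than in SMRT-KO by 2.90 on the log2 scale (difference -2.90 ± 0.28, adjusted p = 0.00108), and Grin2b differed by -1.68 ± 0.20 (adjusted p = 0.00206). Grin1 was slightly higher in NCoR1-KO, at 426 ± 13.2 TPM against 376 ± 2.41 TPM (SD, n = 3 each), with a difference of 0.18 ± 0.05 (adjusted p = 0.0403). Grin2d was higher as well, at 10.38, 10.53 and 10.08 TPM against 8.65, 7.39 and 7.42 TPM (0.36 ± 0.10, adjusted p = 0.0451). Grin2c differed by -0.27 ± 0.10 (adjusted p = 0.0944) and Grin3a by 0.33 ± 0.18 (adjusted p = 0.253). This comparison called many genes, 11.5% of 14606, and 38.4% of genes did not overlap, as 5 of 6 members did not.

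The calls of Grin2a and Grin2b in this direct comparison held without any single amygdala library, with adjusted p-values up to 0.00911 and 0.0155. Those of Grin1 and Grin2d did not. The adjusted p of Grin1 was 0.0569, 0.119 and 0.108 without NCoR1-KO 1, 2 or 3, 0.0699, 0.11 and 0.117 without SMRT-KO 1, 2 or 3, and 0.0511 without control 4. That of Grin2d was 0.0961, 0.132 and 0.0867 without NCoR1-KO 1, 2 or 3, and 0.147 and 0.141 without SMRT-KO 2 or 3. Grin2c passed without control 4 (0.0475). Markers moved between these groups too. Pvalb, of fast-spiking interneurons, differed by -1.63 (adjusted p = 0.0179), but the 8 interneuron markers, of which it was the 1 that passed, summed to 1782 to 2118 TPM in NCoR1-KO and 1870 to 1997 TPM in SMRT-KO. Of 5 microglial markers 4 were lower in NCoR1-KO, and their sum was 206 to 215 TPM against 271 to 290 TPM. Oligodendrocyte markers summed to 3769 to 5161 TPM against 7699 to 11588 TPM, with 0 of 8 passing, and striatal markers to 622 to 1082 TPM against 1122 to 1792 TPM, with 1 of 9 passing. Of 8 thalamic markers 1 was higher and 2 were lower, and 1 marker each passed among those of glutamatergic neurons and amygdala nuclei (higher) and of astrocytes and endothelium (lower). No marker of the interneuron, microglial, oligodendrocyte and striatal lists was under 1 TPM throughout a group. The part of these markers in the subunit differences was not tested.

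**Figure D2:**
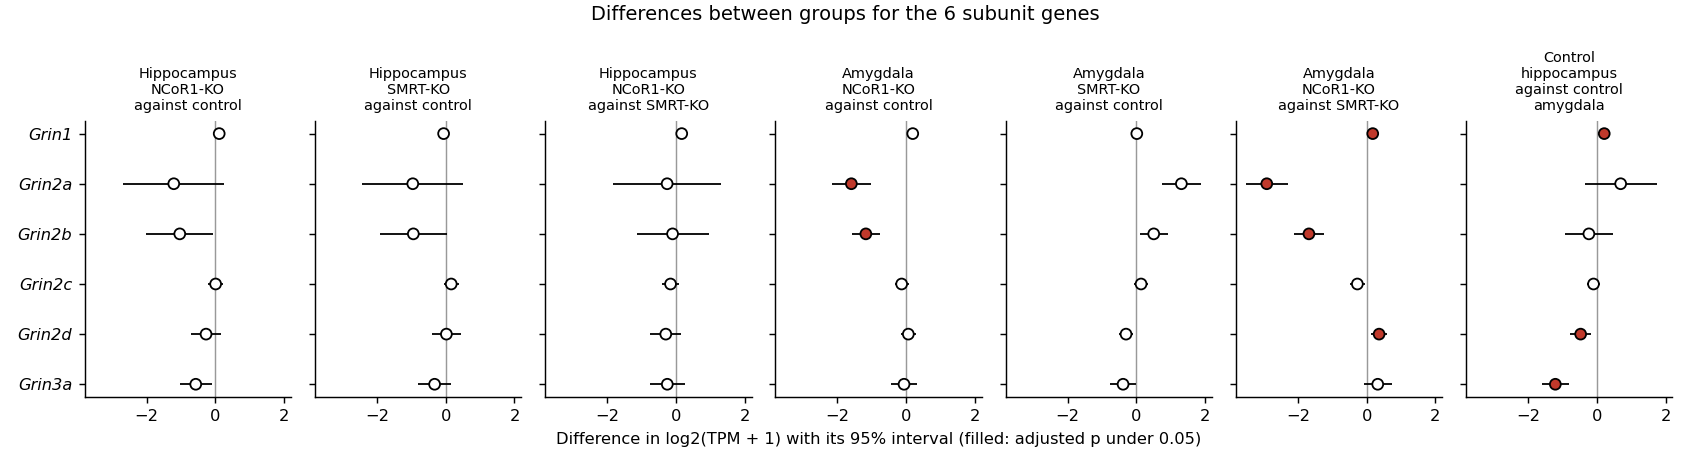
Difference in log2(TPM + 1) (x axis) for each subunit gene (y axis) in the 7 comparisons of groups, the first group named minus the second, with the 95% interval. Filled points passed an adjusted p of 0.05: Grin2a and Grin2b in amygdala NCoR1-KO against control, 4 genes between the amygdala knockouts, and 3 between the control tissues.

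In the hippocampus no subunit gene passed in any comparison, and the spread within groups was wide. Grin2a was at 101.33, 36.76, 14.2 and 27.19 TPM in controls, at 12.41, 15.9 and 15.36 TPM in NCoR1-KO, and at 50.39, 9.09 and 11.16 TPM in SMRT-KO. Over the 10 libraries the highest level was 11.15 times the lowest, and control 3 fell within the range of NCoR1-KO. Grin2b was at 104.19, 55.92, 26.18 and 40.15 TPM in controls, at 21.61, 28.69 and 21.63 TPM in NCoR1-KO, and at 46.68, 17.53 and 20.05 TPM in SMRT-KO. Control 1 and SMRT-KO 1 were the highest of their groups for both genes.

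Against controls, the NCoR1-KO difference in hippocampus was -1.21 ± 0.66 for Grin2a and -1.04 ± 0.44 for Grin2b (adjusted p = 0.998 for both). Without control 1 they were -0.71 and -0.69. The 95% intervals of the fit with all libraries, -2.68 to 0.26 and -2.02 to -0.06, include the sizes seen in the amygdala. Grin3a, the juvenile subunit gene, was at 13.98, 20.72 and 15.14 TPM against 23.59, 35.85, 25.55 and 17.6 TPM in controls (-0.57 ± 0.21, unadjusted p = 0.0213, adjusted p = 0.998). The highest of these Grin3a values was that of control 2, the library with raised striatal markers. Without the 3 libraries highest in striatal, choroid plexus or thalamic markers the Grin3a difference was -0.35 (adjusted p = 0.958). Grin1 was at 482.93, 460.0 and 457.48 TPM against 455.27, 433.3, 429.67 and 413.96 TPM (0.11 ± 0.07, adjusted p = 0.998), without overlap. Of the 6 members, 1 did not overlap, against 8.09% of genes. By limma's test 0 of 6 members and 0% of 14501 genes passed, with 2 members and 658 genes at an unadjusted p under 0.05.

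Hippocampal SMRT-KO gave a similar picture. Grin2a differed from controls by -0.96 ± 0.66 (adjusted p = 0.791) and Grin2b by -0.94 ± 0.44 (adjusted p = 0.779), both with overlap. Without control 1 the Grin2a difference was -0.45 and that of Grin2b -0.59, and without SMRT-KO 1 that of Grin2a was -1.70. Grin2d was at 6.1, 10.22 and 5.28 TPM in SMRT-KO and Grin2c at 24.74, 31.43 and 25.18 TPM. The highest of both was SMRT-KO 2, the library with raised thalamic markers, in which Grin1 was lowest of all 10 hippocampal libraries, at 370.13 TPM. No member passed and none had an unadjusted p under 0.05, where 0% of 14501 genes passed and 813 had such a p. All 6 overlapped, whereas 4.78% of genes did not.

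The hippocampal knockouts did not differ from each other beyond their spread. Grin2a differed by -0.26 ± 0.70 and Grin2b by -0.10 ± 0.47 between NCoR1-KO and SMRT-KO, with 95% intervals of -1.83 to 1.32 and -1.15 to 0.95. Grin1 did not overlap (0.17 ± 0.07, adjusted p = 0.754) and was the 1 such member of 6, against 11.4% of genes. By limma's test 0 of 6 members and 0% of genes passed, with 1 member and 956 genes at an unadjusted p under 0.05.

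Whether a knockout acted differently in the 2 tissues was tested as an interaction in a joint fit of the 20 libraries. The SMRT-KO effect on Grin2a was lower in hippocampus than in amygdala by 2.27 on the log2 scale (difference -2.27 ± 0.76, unadjusted p = 0.00837, adjusted p = 0.418), and that on Grin2b by 1.45 (difference -1.45 ± 0.51, unadjusted p = 0.0115, adjusted p = 0.438). Neither passed. The NCoR1-KO effect differed by 0.38 ± 0.76 for Grin2a and 0.13 ± 0.51 for Grin2b (adjusted p = 0.998 for both). By limma's test 0 of 6 members and 0% of 14210 genes passed in either interaction, with 2 and 0 members and 1257 and 522 genes at an unadjusted p under 0.05 for SMRT-KO and NCoR1-KO.

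The control tissues differed in 3 subunit genes. Grin3a was at 23.59, 35.85, 25.55 and 17.6 TPM in hippocampus and at 51.84, 64.57, 63.97 and 55.22 TPM in amygdala, a difference of -1.21 ± 0.19 (adjusted p = 0.000111). All amygdala controls were higher than all hippocampal ones. Grin2d was also lower in hippocampus, at 5.55, 7.64, 6.6 and 7.73 TPM against 10.6, 9.52, 10.95 and 8.46 TPM (-0.47 ± 0.14, adjusted p = 0.0171). Grin1 was higher in hippocampus, at 455.27, 433.3, 429.67 and 413.96 TPM against 368.76, 390.27, 350.96 and 380.48 TPM (0.22 ± 0.05, adjusted p = 0.00379). Grin2a (0.69 ± 0.50, adjusted p = 0.315), Grin2b (-0.23 ± 0.33, adjusted p = 0.646) and Grin2c (-0.10 ± 0.09, adjusted p = 0.456) overlapped. Between tissues 32.5% of 14210 genes passed and 32.6% did not overlap, against 3 of 6 members on either count. Cell type markers differed as well. Interneuron markers summed to 1137 to 1581 TPM in hippocampal and 1805 to 1988 TPM in amygdala controls, with 4 of 8 lower and 1 higher in hippocampus. Oligodendrocyte markers were higher there in 8 of 8 cases, pan-neuronal markers lower in 4 of 6 and microglial markers lower in 4 of 5. Their part in the subunit differences was not tested. The call of Grin2d ended without hippocampal control 1 (adjusted p = 0.0636) or amygdala control 3 (0.0523). The joint fit took the 20 libraries as independent, and the labels do not say whether both tissues came from the same animals. The tables were scaled separately, and tissue cannot be told apart from any difference in handling.

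The balance of Grin2a to Grin2b, whose shift marks forebrain maturation, was described per library without a test. In hippocampal controls the ratio of their TPM was 0.973, 0.657, 0.542 and 0.677. In amygdala controls it was 0.381, 0.396, 0.414 and 0.268, below every hippocampal library of any genotype. Amygdala NCoR1-KO had ratios of 0.229, 0.261 and 0.258, all below the controls, and amygdala SMRT-KO 0.469, 0.825 and 0.693, all above them. In hippocampal NCoR1-KO the ratio was 0.574, 0.554 and 0.710, and in SMRT-KO it was 1.079, 0.519 and 0.557, both overlapping the controls. Grin2b exceeded Grin2a in 19 of 20 libraries, the exception being hippocampal SMRT-KO 1.

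The makeup of the subunit transcripts was described as the ratio of Grin1 to the GluN2 genes. Grin2a and Grin2b moved with other genes of long transcripts, as described below, and Grin1 did not. Neither this ratio nor that of Grin2a to Grin2b was adjusted for transcript length. Amygdala controls had 3.24 ± 0.69 times as much Grin1 as Grin2a to Grin2d together (SD, n = 4), with a range of 2.43 to 4.11. The ratio was 6.49 ± 0.32 in amygdala NCoR1-KO and 2.15 ± 0.20 in amygdala SMRT-KO (SD, n = 3 each), and neither overlapped the controls. In hippocampus it was 3.89 ± 1.65 in controls, 6.87 ± 0.53 in NCoR1-KO and 5.33 ± 1.88 in SMRT-KO, which overlapped the controls. NCoR1-KO lay above all controls there, from 6.345 up against at most 5.931. Grin2a and Grin2b each overlapped the controls in that comparison, and neither passed. The ratio of Grin1 to the GluN2 genes was not tested in either tissue. Grin2a was 4.07% of the summed TPM of the 6 genes in amygdala controls, 1.16% in NCoR1-KO and 9.09% in SMRT-KO. In amygdala NCoR1-KO, Grin2a was the lowest member, below Grin2d in all 3 libraries, whereas in the other 5 groups the mean of Grin2a lay above that of Grin2d.

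**Figure D3:**
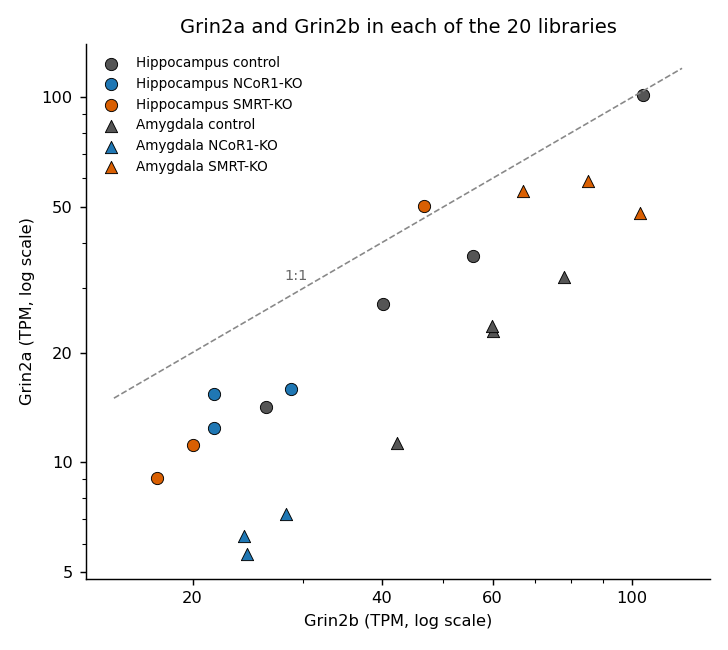
Grin2a (y axis) against Grin2b (x axis), both in TPM on log axes, for the 20 libraries, with circles for hippocampus, triangles for amygdala and colours for genotype. The genes move together within each tissue, and 19 of 20 points lie below the dashed line of equal levels.

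Grin2a and Grin2b moved together across libraries and with other genes of long transcripts. With the mean of each tissue removed, log2 levels of Grin2a and Grin2b had r = 0.961 over the 20 libraries, which is given as a description since the libraries share groups. Between Grin1 and either of them r was -0.31. Among genes tested in both tissues, members and predicted genes left out, Grin2a was closest to D10Bwg1379e (r = 0.989), Ptar1 (0.985) and Kcnma1 (0.978). Kcnma1 is the gene of the calcium-activated BK potassium channel. The closest to Grin2b were D10Bwg1379e (0.969), Kcng3 (0.969), a modifier subunit of voltage-gated potassium channels, and Vps13d (0.963). D10Bwg1379e had no known transcript length. Of the 50 genes of known length closest to Grin2a, 40 had a transcript over 10 kb. The same count held for Grin2b, whereas 2.52% of 12640 genes had one.

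The other members had neighbours of ordinary length, with 0 to 2 of the closest 50 of known length over 10 kb. The closest genes to Grin1 were Acap3 (r = 0.905), Pld3 (0.891) and Svop (0.876), a synaptic vesicle protein gene. Those of Grin2c were Rorb (0.848), a nuclear receptor gene, Rnf220 (0.846) and Sc4mol (0.835), a sterol synthesis gene. Those of Grin2d were Vat1 (0.909), Calb2 (0.895), the gene of calretinin, and Nrbp2 (0.889). Those of Grin3a were Trhr (0.931), the receptor gene of thyrotropin-releasing hormone, Smyd3 (0.912) and Rab3c (0.897).

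Transcript length was therefore set beside the results. For each library, the median log2 deviation from the tissue mean was taken over the other tested genes with transcripts over 10 kb, 327 in hippocampus and 331 in amygdala. In amygdala it was -0.33, -0.15 and -0.13 in NCoR1-KO, below 0.04, 0.06, 0.16 and -0.0009 in controls and 0.16, 0.06 and 0.11 in SMRT-KO. In hippocampus it ran from 0.25 in control 1, the library with the highest Grin2a and Grin2b, to -0.33 in SMRT-KO 3, with NCoR1-KO 1 at -0.20 and SMRT-KO 2 at -0.16. Grin2a and Grin2b were lowest in SMRT-KO 2, so the order of the libraries was not the same for both measures. In amygdala NCoR1-KO against control, 28 of 331 long-transcript genes fell and 0 rose, so 8.46% passed against 0.193% of the other genes with a known length. Between the amygdala knockouts, 152 fell and 5 rose in NCoR1-KO, or 47.4% against 10.7%. Rn45s levels separated some groups too. Every hippocampal control, from 18677 TPM up, exceeded every hippocampal knockout library, which reached at most 16599 TPM. Amygdala SMRT-KO libraries held at least 17715 TPM, above all of NCoR1-KO (at most 14920 TPM), while controls overlapped both. In hippocampus, Rn45s was highest in control 1 and lowest in SMRT-KO 1, at 9527 TPM. Both libraries were the highest of their groups for Grin2a. Beyond fits without Rn45s, its part was not tested.

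Values adjusted for length differed from those above, in fits chosen after seeing the data. With each library's trend of log2 level on transcript length removed, Grin2a differed between amygdala NCoR1-KO and control by -1.30 (adjusted p = 0.075) and Grin2b by -0.75 (adjusted p = 0.0706), and neither passed. Grin2a then passed in amygdala SMRT-KO against control, at 1.26 (adjusted p = 0.049). With the long-transcript median as a covariate, the NCoR1-KO differences were -0.76 (adjusted p = 0.72) and -0.46 (adjusted p = 0.726), and the direct comparison of the amygdala knockouts called 0 genes. All 3 amygdala NCoR1-KO libraries had a lower median than all other amygdala libraries, so this covariate and the genotype cannot be told apart there.

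**Figure D4:**
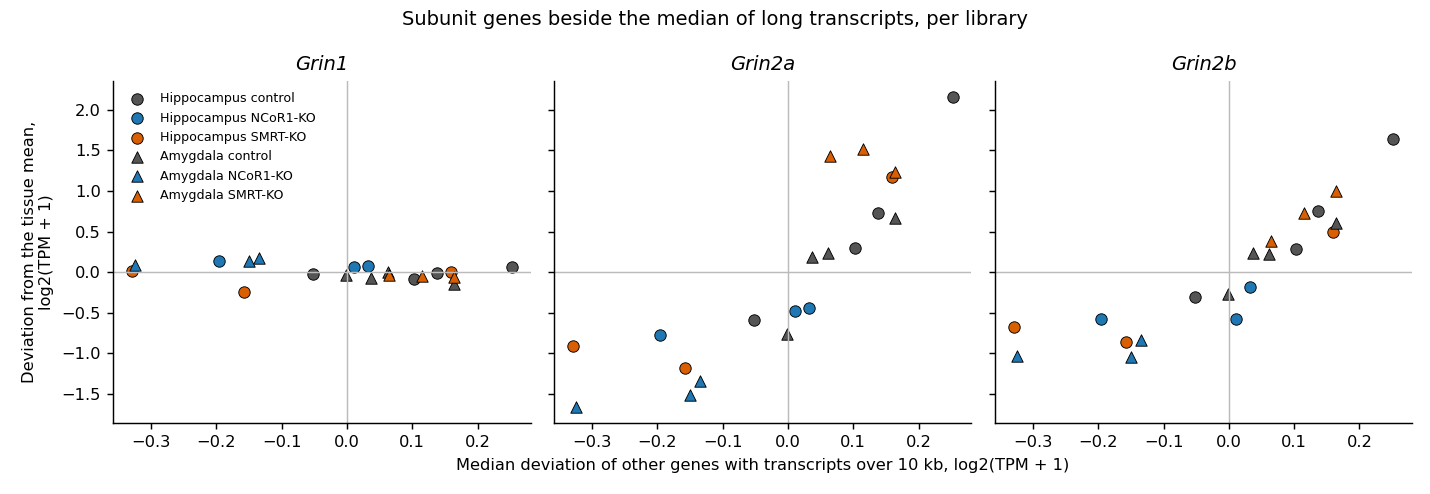
Deviation of Grin1, Grin2a and Grin2b from the mean of their tissue (y axis) against the median deviation of other genes with transcripts over 10 kb (x axis), both in log2(TPM + 1), for the 20 libraries. Grin2a and Grin2b rise with the median in both tissues, and Grin1 stays near 0.

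Receptor partners were taken from 7 lists of 67 genes, of which 65 were tested. In amygdala NCoR1-KO against control 1 of 65 fell and 0 rose, 10 had an unadjusted p under 0.05 where 1915 of 14606 genes did, with a median difference of 0.0004 beside -0.03 over all genes. In amygdala SMRT-KO 0 of 65 passed, with 16 at an unadjusted p under 0.05, as were 3208 of 14606 genes. The median difference there was 0.01. In the hippocampal NCoR1-KO and SMRT-KO comparisons with control 0 of 65 passed. At an unadjusted p under 0.05 were 3 and 4 of 65, beside 658 and 813 of 14501 genes. Between the hippocampal knockouts 0 of 65 passed and 8 had such a p, beside 956 of 14501 genes. Between the amygdala knockouts 11 of 65 passed, 4 higher and 7 lower in NCoR1-KO, with a median of -0.02. Since 11.5% of all genes passed in this comparison, the counts by list that follow describe the lists and set none of them apart.

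The gene that fell in amygdala NCoR1-KO against control was Slc1a2, which encodes the main glutamate transporter of astrocytes and so clears the ligand of the receptor. It was at 1023, 1034 and 1119 TPM in NCoR1-KO and at 1435, 1330, 1388 and 1566 TPM in controls, without overlap (-0.43 ± 0.07, adjusted p = 0.0291). Its transcript of 11595 bases is among those over 10 kb. The related transporter gene Slc1a3 differed by -0.24 ± 0.05 (adjusted p = 0.106). The 7 astrocyte markers summed to 831 to 902 TPM in these knockouts and 902 to 1241 TPM in controls. The part of these markers was not tested.

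Of 12 scaffold genes, 3 were lower in amygdala NCoR1-KO than in SMRT-KO and none was higher, where 11.5% of all genes passed in either direction. Homer1, which links glutamate receptors to calcium stores, was at 95.7, 108.97 and 115.98 TPM in NCoR1-KO and at 142.54, 198.37 and 163.41 TPM in SMRT-KO (-0.64 ± 0.15, adjusted p = 0.0267). The NCoR1-KO levels overlapped the controls, at 87.1, 132.78, 100.32 and 109.77 TPM, and the SMRT-KO levels lay above them (0.64 ± 0.14, adjusted p = 0.059). Dlg2, the gene of the scaffold PSD-93, differed by -0.28 ± 0.06 between the knockouts (adjusted p = 0.0225) and Shank3 by -0.23 ± 0.06 (adjusted p = 0.0365). Dlgap3 differed by -0.21 ± 0.07 (adjusted p = 0.0667).

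Among signalling genes downstream of the receptor, 1 of 9 was lower and 1 higher. Camk4, a calcium-activated kinase of the nucleus, was at 111.38, 98.29 and 111.08 TPM in amygdala NCoR1-KO and at 181.94, 177.14 and 203.37 TPM in SMRT-KO, with controls between them at 135.88, 129.11, 155.23 and 129.58 TPM. The 3 groups did not overlap. Its direct difference was -0.80 ± 0.08 (adjusted p = 0.0013), and neither knockout passed against control (-0.36 ± 0.08, adjusted p = 0.0846, and 0.45 ± 0.08, adjusted p = 0.0572). Its transcript of 2717 bases is short. Rasgrf1, an exchange factor for Ras driven by calcium, went the other way (0.42 ± 0.08, adjusted p = 0.0147), and its relative Rasgrf2 differed by -0.05 ± 0.07 (adjusted p = 0.698).

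Other lists gave isolated calls between the amygdala knockouts. Among 13 kinases and phosphatases, Ppp3ca, a catalytic subunit of calcineurin, differed by -0.24 ± 0.08 (adjusted p = 0.062). Of 11 transport genes, Ap2m1, a subunit of the clathrin adaptor, was higher (0.21 ± 0.05, adjusted p = 0.025). Of 8 membrane and extracellular partners, Ephb2 (-0.41 ± 0.12, adjusted p = 0.0487) and Neto1 (-0.36 ± 0.10, adjusted p = 0.0437) were lower and Grina (0.16 ± 0.04, adjusted p = 0.0406) was higher. Slc1a2 was lower (-0.58 ± 0.07, adjusted p = 0.00289) and was the only call among 9 genes of transmitter and co-agonist handling. Of 3 repressors of subunit genes, none passed, with Rest, a repressor of neuronal genes, at -0.23 ± 0.15 (adjusted p = 0.34) and Ezh2 at -0.23 ± 0.12 (adjusted p = 0.216). Of the 7 lower genes 2 had transcripts over 10 kb, as did 5 of all 67 genes and none of the 4 higher ones.

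In hippocampus the partner genes of smallest p did not pass. Reln, which encodes the secreted protein reelin, was at 18.1 TPM on average in SMRT-KO against 31.9 TPM in controls (-0.82 ± 0.25, adjusted p = 0.779). Rasgrf2 differed by -0.37 ± 0.09 in SMRT-KO (adjusted p = 0.779), and Lin7a, part of a complex that carries receptors along dendrites, by -0.31 ± 0.09 in NCoR1-KO (adjusted p = 0.998).

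**Figure D5:**
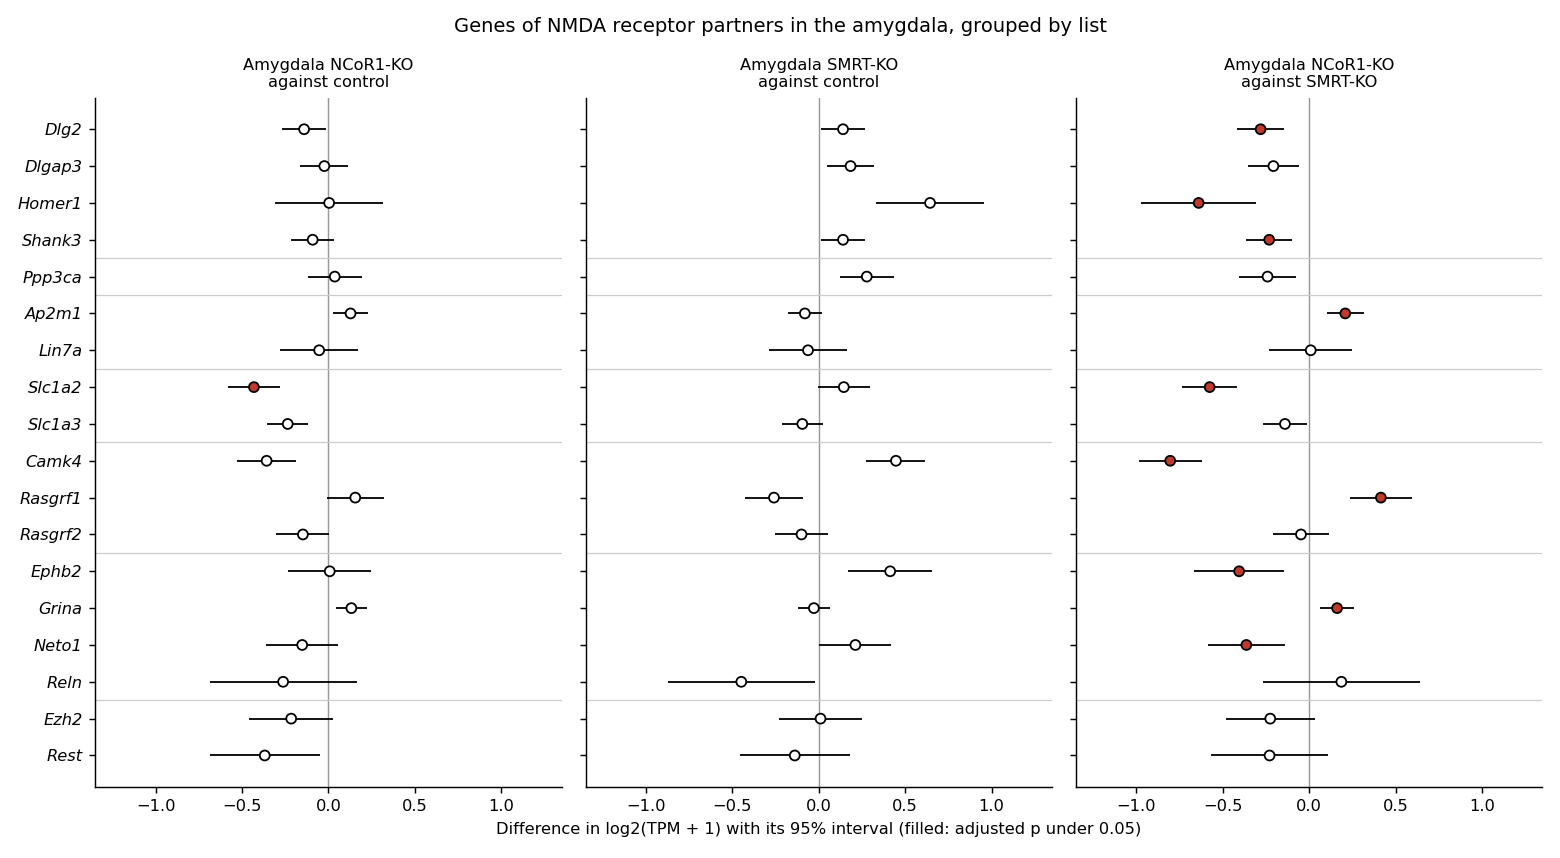
Difference in log2(TPM + 1) with its 95% interval (x axis) for named genes of receptor partners (y axis, grey lines divide the lists) in the 3 amygdala comparisons, filled where the adjusted p was under 0.05. Slc1a2 is filled in NCoR1-KO against control, none in SMRT-KO against control, and 10 genes between the knockouts.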

How the data were processed

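Total RNA of hippocampus and amygdala was made into libraries with a stranded TruSeq mRNA kit, per the labels' protocols. The authors deposited gene-level TPM values in 1 table per tissue. The submitters' processing notes name bcl2fastq, fastp 0.21.0, STAR 2.5.3a, RSEM 1.3.3 and mm10. They name no annotation. Counts cannot be recovered from TPM, so depth is unknown and counting error could not be stated.

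For the tests, TPM was put on the scale log2(TPM + 1) and fitted by limma 3.58.1 under R 4.3.3, with 3 genotype groups over the 10 libraries of a tissue, a variance trend and two-sided tests. Tissues were compared in a fit of all 20 libraries. Gene models are from GENCODE M21. Proteins translated from its transcripts were aligned with MAFFT 7.526 and read with Biopython 1.88. The procedure was tested on simulated data.

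The subunit genes and lists were chosen with earlier results of these data known. The 6 members are named throughout, with Ncor1, Snap25 and Grin3b once. Partner genes are named where they passed in a knockout comparison or had the 2 smallest p-values of their list against control, and the 3 closest genes of each member by r are named, without predicted genes. Markers are given by list, with a few named. Alternatives covered pseudocounts, filters, scaling, the variance model, a replicate block and left-out libraries. The targeted gene of SMRT-KO, 1 partner gene that passed and 1 sequence are not reported here.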

Additional observations from a re-analysis of the deposited data

Results flagged for a closer look

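In amygdala control 1, Ncor1 was at 71.3 TPM, while the other 3 amygdala controls were between 117 and 127 TPM. Its gap to the nearest control exceeded Dixon's critical value for 4 samples. Of 30 sets of 4 controls examined in this way, over the 6 subunit genes, their shares, the ratio of Grin2a to Grin2b, Ncor1 and Snap25, this was the 1 marked, and chance marks about 1 in 20. The level of Grin2a in this library, 22.87 TPM, and of Grin2b, 59.98 TPM, lay within the range of the other controls. Without this library, 3 genes passed in amygdala NCoR1-KO against control, where 60 passed with it.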

How the results depend on the processing

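The labels give groups the same replicate numbers. Same-numbered libraries of different genotypes had correlated deviations of -0.472 to 0.478 in hippocampus and -0.273 to 0.344 in amygdala (9 pairs each, 2 over 0.1), so the numbers were not taken to pair genotypes. Between tissues, same-numbered libraries of a genotype had 0.001 to 0.48 (10 pairs, median 0.147, 7 over 0.1) and others -0.354 to 0.237 (24 pairs, median -0.082, 2 over 0.1). Same-numbered pairs between tissues thus had the higher correlations by their median. No label ties them, so the joint fits took libraries as independent, and the p-values of these fits ignore any pairing of tissues. Whether tissues share animals is not known. With a replicate block that joins same-numbered libraries of a genotype across tissues, 3 members passed between control tissues and 0 in either interaction, as without it. Within amygdala, a replicate block instead joins same-numbered libraries of different genotypes, a pairing that was not assumed above. Only controls have a replicate 4, so control 4 does not bear on the genotype differences of that fit. With this block, 4 genes and 1 member (Grin2a, 1.03, adjusted p = 0.03) passed in amygdala SMRT-KO against control. Between the amygdala knockouts 854 genes and 2 members passed. Grin2d in amygdala NCoR1-KO against control was at -0.0015, the same as without control 4. Across 612 member results under settings other than left-out libraries, 569 kept their direction and side of the threshold, 22 lost a call, 5 gained one and 16 changed sign; with a library left out these were 668, 28, 3 and 21 of 720.

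In amygdala NCoR1-KO against control 60 genes and 2 members passed. A pseudocount of 5 gave 38 genes and 1 member (Grin2a had an adjusted p of 0.0501), no filter 16 and 0, no variance trend 17 and 0 (Grin2a 0.0653, Grin2b 0.0598), only the 2 groups compared 4 and 0, removal of the length trend 16 and 0, and the long-transcript covariate 0 and 0. In amygdala SMRT-KO against control, where 16 genes and 0 members passed, no filter gave 2 genes, no variance trend 3, only the 2 groups compared 2, leaving out Rn45s 5, a mean of at least 5 TPM 143 and 1 member, removal of the length trend 76 and 1 member, and the covariate 574 and 2 members (Grin2a 1.16, adjusted p = 0.0398, and Grin3a -0.53, 0.0432). Between the amygdala knockouts, where 1679 genes and 4 members passed, no filter left 2 members and the covariate 0 genes and 0 members. In hippocampus, where 0 genes passed, quantile normalization gave 1 gene for NCoR1-KO and 1 for SMRT-KO against control, and only the 2 groups compared gave 1 for NCoR1-KO against control and 5 between the knockouts. The SMRT-KO interaction, with 0 genes, had 2 at a pseudocount of 5 and 1 with no filter. A pseudocount of 1 moved the mean log2 ratio of Grin2a to Grin2b in amygdala NCoR1-KO to -1.85.

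Sign changes concerned small or wide differences. Without Rn45s, Grin2c was at -0.0124 in hippocampal NCoR1-KO and -0.0066 in the SMRT-KO interaction. With the covariate, Grin2c was at -0.0458 in hippocampal NCoR1-KO, Grin2a at 0.1692 in hippocampal SMRT-KO, Grin3a at 0.7105 in amygdala NCoR1-KO, Grin2a and Grin2b at -0.1350 and -0.2082 in the NCoR1-KO interaction, and Grin2c at -0.0894 in that of SMRT-KO. With the length trend removed, Grin3a was at 0.0562 in amygdala NCoR1-KO and Grin2b at -0.0304 in the NCoR1-KO interaction. A further fit left out the 3 hippocampal libraries highest in striatal, choroid plexus or thalamic markers. In it Grin2c was at -0.0454 in hippocampal NCoR1-KO, and Grin1 and Grin2d at 0.0223 and -0.1819 in hippocampal SMRT-KO. Grin1 and Grin2c were at 0.0091 and -0.1312 in the SMRT-KO interaction of that fit.

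With each library left out in turn, genes passing ranged from 0 to 1 in each hippocampal comparison, 0 to 126 (members 0 to 2) in amygdala NCoR1-KO and 0 to 697 (members 0 to 1) in amygdala SMRT-KO against control, 246 to 2218 (members 2 to 4) between the amygdala knockouts, 0 to 18 in the SMRT-KO interaction and 3759 to 5105 (members 2 to 3) between control tissues. Members whose sign changed ranged as follows: in hippocampal NCoR1-KO, Grin2c from -0.0529 to 0.0633; in hippocampal SMRT-KO, Grin1 from -0.1057 to 0.0217 and Grin2d from -0.2293 to 0.1893; between the hippocampal knockouts, Grin2a from -0.6916 to 0.4826 and Grin2b from -0.3552 to 0.3265. In amygdala NCoR1-KO, Grin2d ranged from -0.0015 to 0.1109 and Grin3a from -0.2064 to 0.1281, and in amygdala SMRT-KO Grin1 ranged from -0.0152 to 0.0357. In the NCoR1-KO interaction Grin2a ranged from -0.0328 to 0.8842 and Grin2b from -0.1688 to 0.4820, and in that of SMRT-KO Grin1 from -0.1188 to 0.0086, Grin2c from -0.0835 to 0.0831 and Grin3a from -0.1127 to 0.2336. Between control tissues Grin2b ranged from -0.5792 to 0.0716. The causes were not tested. The fits with the length trend, the covariate and the 3 libraries left out were chosen after seeing the data.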
